A study of Mus musculus with 6 samples.

Results

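The genes described here are 47 genes of the primary cilium and of hedgehog signalling, out of 55401 genes in the table, in mouse cells. They are rows of the table whose symbol is on a fixed list of intraflagellar transport (IFT), Bardet-Biedl syndrome (BBS), nephronophthisis, polycystin, cilium transcription factor and hedgehog genes, and each of the 47 symbols was found. The 6 libraries compare neural stem cell-like cells (iNSCs, 3 libraries) with the spermatogonial stem cells (SSCs, 3 libraries) that they derive from. The iNSCs had gone through transdifferentiation for 6 days on laminin: after 24 h in 1 µM retinoic acid the medium held 0.5% N2, 1% B27, 20 ng/mL of bFGF, 1% serum and 10 µM of SB431542, which inhibits TGF-beta type I receptors. The SSCs are germline stem cells from the testes of male mice at 6 days of age, kept on STO fibroblast feeders. Their medium held LIF, EGF, 20 ng/mL of GDNF, 10 ng/mL of bFGF and 10% fetal bovine serum. Sample titles, source names and stage labels put the libraries in the same groups, while the cell type label has the groups the other way round in each of the 6 samples and was set aside. The labels do not say whether replicates were separate cultures, so p-values measure only the spread between these libraries, which may be technical. In bulk RNA, fewer cells that express a gene and less RNA per cell cannot be told apart.

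The primary cilium is a single non-motile antenna that grows from the mother centriole of most vertebrate cells. Kinesin-driven IFT-B trains carry cargo to its tip, dynein-driven IFT-A trains return it, a transition zone at the base gates entry, and the BBSome sorts membrane proteins. Vertebrate hedgehog signalling runs through this organelle: without ligand Ptch1 keeps Smo out of it, and with ligand Smo enters and Gli proteins become activators of target genes such as Gli1 and Ptch1.

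Libraries held 18058551 to 20156067 counts. Levels below are FPKM (counts scaled by exonic length and by the library's total count), and differences are log2 values, iNSCs minus SSCs, with their standard error (SE), from edgeR's quasi-likelihood test scaled by trimmed mean of M-values. A gene is said to have risen or fallen where the Benjamini-Hochberg adjusted p was under 0.05 and the difference was at least 2-fold. FPKM carries no such scaling: with library totals in its place the median log2 difference of all genes moved by -0.25, so FPKM ratios run lower than the fitted differences.

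The groups differed in cell-type markers. Summed over 6 germ cell markers, levels were 8.2 to 10.9 FPKM in iNSCs and 474 to 563 FPKM in SSCs, and 6 of 6 fell. Of 7 simple epithelium markers 6 rose, with sums of 2620 to 3080 FPKM in iNSCs and 150 to 247 FPKM in SSCs. Epcam was not called, and it made up most of each SSC sum. It had 91.67, 104.66 and 109.78 FPKM in iNSCs and 126.93, 127.43 and 205.73 FPKM in SSCs. Sums of 10 Sertoli cell markers were 691 to 884 FPKM in iNSCs and 58.2 to 326 FPKM in SSCs, and 6 of the 8 tested rose while 1 fell. Clu made up most of each sum, at 546.84, 750.45 and 713.04 FPKM in iNSCs and 279.73, 44.18 and 94.97 FPKM in SSCs. Of 7 neural stem cell markers, Nes and Prom1 rose and 4 of the 6 tested fell. In iNSCs Sox2 stood at 0.05, 0.02 and 0 FPKM, Pax6 at 0.04, 0.04 and 0.02 FPKM, and Nr2e1 at 0 in every library, so these defining markers were at or near 0 in the group named for neural stem cells. In SSCs Sox2 had 9.16, 10.98 and 13.22 FPKM and Nr2e1 0.78, 1.76 and 1.34 FPKM. Pax6 had 0.05, 0.09 and 0.12 FPKM in SSCs, so it was near 0 in both groups. All 7 neural stem cell markers together summed to 129 to 136 FPKM in iNSCs and 40.1 to 44.4 FPKM in SSCs. Nes made up most of the iNSC sums, at 103.63, 103.04 and 95.78 FPKM. Sums of 8 proliferation markers were 147 to 162 FPKM in iNSCs and 456 to 616 FPKM in SSCs, and 5 of the 8 fell. The SSC libraries differed among themselves: 10 fibroblast and feeder markers summed to 321 to 383 FPKM in iNSCs, and to 499, 478 and 89.8 FPKM in SSCs replicates 1, 2 and 3. In that list 5 of 10 rose and 1 fell. For 5 smooth muscle markers the sums were 252 to 300 FPKM in iNSCs and 524, 449 and 23.6 FPKM in SSCs, and edgeR called 0 of the 5, with 0 at an unadjusted p under 0.05 and 0 by DESeq2 or limma. Leydig cell markers, of which 3 of the 4 tested rose, summed to 47.8 to 54.4 FPKM in iNSCs and 13.2 to 43.0 FPKM in SSCs. What part these differences have in the levels below was not tested.

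All 47 genes passed the filter on low counts. Of them 10 rose in iNSCs (21.3%), 10 fell (21.3%) and 27 were not called. The called share was 42.6%, against 53.3% of all 17387 genes tested, of which 25.7% were called higher and 27.6% lower. Their median log2 difference was -0.02, beside -0.05 for all genes, and their median size without sign was 0.77 on the log2 scale, beside 1.15 for all genes. Differences of at least 4-fold were found for 6 of them (12.8%), beside 29.2% of all genes. The FPKM ranges of the groups did not overlap for 36 of the 47 (76.6%), beside 79.3% of all genes tested. With library totals the calls were 8 higher and 13 lower, so the share of calls that were higher was 38.1% in place of 50% (over all genes, 39.6% in place of 48.2%). On log2(FPKM + 1), a scale that shrinks differences of low genes, limma left under the 2-fold limit Rfx3 (-0.92), Gli1 (-0.76), Invs (0.59) and Ttc8 (0.96), and also Ift27, Ift80, Tulp3, Dync2h1 and Bbs12. All 9 kept their direction there.

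The calls were spread over the roles. IFT-B had 2 higher and 2 lower of 10 genes, the IFT-A group 1 higher of 4, the motors 1 lower of 3 and the BBS genes 1 higher and 3 lower of 10. Among 9 transition zone and basal body genes 2 rose and 2 fell, among the 3 polycystic kidney genes 2 rose, and among the 3 transcription factors and among the 5 hedgehog genes 1 rose and 1 fell in each. The differences past 8-fold were those of Pkhd1 and Foxj1, which rose, and Gli1, which fell.

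**Figure D1:**
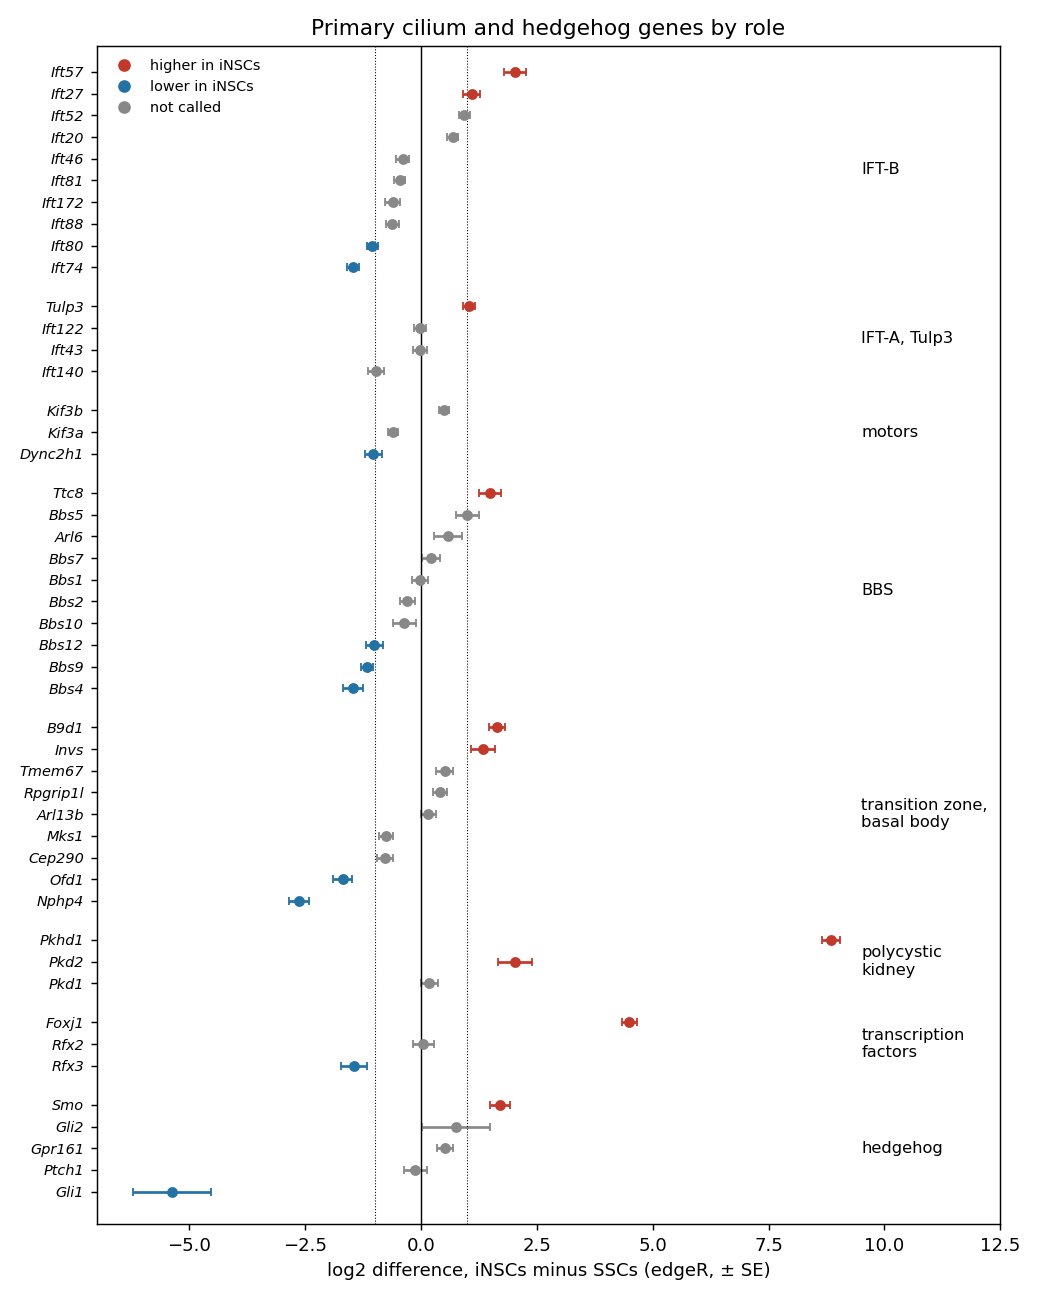
Fitted log2 difference (iNSCs minus SSCs, with its standard error) of each of the 47 genes, grouped by role, with called genes coloured. Pkhd1 at 8.85 and Foxj1 at 4.49 lie farthest on the higher side and Gli1 at -5.38 farthest on the lower side.

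Pkhd1 (ENSMUSG00000043760, chromosome 1, 20057779 to 20618064, minus strand, GRCm38) encodes fibrocystin, a ciliary membrane protein of kidney tubules and bile ducts that is mutated in recessive polycystic kidney disease. It had 13.88, 16.26 and 15.03 FPKM in iNSCs, against 0.05, 0.04 and 0.03 FPKM in SSCs. Its transcript was close to absent from every SSC library and within a narrow range in iNSCs, and it rose by 8.85 ± 0.20 (SE) on the log2 scale (edgeR, adjusted p = 4.9e-07). The simple epithelium markers Krt8 and Krt18 moved the same way, while Epcam of the same list, not called, differed by -0.35. The part of these markers was not tested. Krt8 had 1116.15, 1232.26 and 1301.51 FPKM in iNSCs and 4.43, 4.89 and 7.2 FPKM in SSCs. Pkd2, the channel polycystin-2 of dominant polycystic kidney disease, had 9.78, 10.18 and 9.66 FPKM in iNSCs and 3.96, 3.53 and 1.26 FPKM in SSCs. It rose by 2.03 ± 0.36 (SE) (edgeR, adjusted p = 0.00152), with no overlap between the groups and with SSCs replicate 3 well under the other SSC libraries. Pkd1, the partner receptor polycystin-1, had 5.82, 6.25 and 5.87 FPKM in iNSCs and 5.37, 8.31 and 5.24 FPKM in SSCs. These groups overlapped and the difference was 0.18 ± 0.19 (SE) (edgeR, adjusted p = 0.421), which turned to -0.08 with library totals. For Pkd1 3.98% of its exonic bases also lie in exons of Tsc2 on the opposite strand, and whether counting used the strand is not given in the sources used here.

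Among the transcription factors of ciliogenesis the changes ran in both directions. Foxj1 (ENSMUSG00000034227, chromosome 11, 116330704 to 116335399, minus strand), known as the master regulator of motile cilia, had 17.7, 21.55 and 22.15 FPKM in iNSCs, against 1.12, 1.01 and 1.12 FPKM in SSCs. The lowest iNSC library was far above the highest SSC library, and Foxj1 rose by 4.49 ± 0.16 (SE) (edgeR, adjusted p = 1.8e-06). Rfx3, a winged-helix factor that binds the X-box of ciliary gene promoters, had 0.55, 0.96 and 0.5 FPKM in iNSCs and 1.8, 2.4 and 2.27 FPKM in SSCs. It fell by 1.45 ± 0.28 (SE) on the log2 scale (edgeR, adjusted p = 0.00244), with no overlap. Rfx2, its relative with a role in spermiogenesis and motile cilia, had 0.93, 1.39 and 1.28 FPKM in iNSCs and 1.65, 1.34 and 1.18 FPKM in SSCs. The groups overlapped, and the difference of 0.05 ± 0.22 (SE) turned to -0.21 with library totals (edgeR, adjusted p = 0.858).

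Since RFX factors act through the X-box, the promoters were searched for it. RefSeq promoter sequences on GRCm38.p6, from 250 bases before to 50 bases after the start, were at hand for 41 of the 47 genes, and those of Ift80, Ift81, Ift122, Tmem67, Foxj1 and Gli1 were not used here. The X-box was searched on both strands as GTTGCC, any 2 bases and GGNAAC, its left arm GTTGCC also by itself, and a GLI site as TGGGTGGTC; each X-box also counts as a left arm. The X-box letters were in the promoters of Bbs7 and Mks1, 2 of 41 genes (4.88%), beside 96 of all 27025 genes with a RefSeq promoter sequence (0.355%). The left arm was in 16 of 41 (39.0%), beside 3821 of 27025 (14.1%), and base composition was not matched. By call, it was in 3 of 9 genes that rose, 3 of 8 that fell and 10 of 24 not called. The GLI letters were in 0 of 41, beside 78 of 27025 (0.289%), so these letters are absent from these windows. As the letters are this rare over all genes, 0 of 41 cannot tell whether GLI proteins act on these genes. The windows below show the X-boxes of Bbs7 and Mks1, the left arms of the IFT-B genes Ift57 and Ift27, which rose, and the promoter of Pkhd1, which rose by the most of the 47 and holds no left arm. They are written 5′ to 3′ on the gene's strand, with the X-box or left arm in capitals. They lie at chr3:36613458-36613557 (minus strand, Bbs7), chr11:87853115-87853214 (plus, Mks1), chr16:49699160-49699259 (plus, Ift57), chr15:78174082-78174181 (minus, Ift27) and chr1:20618058-20618307 (minus, Pkhd1).
Bbs7: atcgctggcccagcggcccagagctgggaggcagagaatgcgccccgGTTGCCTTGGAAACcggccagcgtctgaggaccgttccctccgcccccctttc
Mks1: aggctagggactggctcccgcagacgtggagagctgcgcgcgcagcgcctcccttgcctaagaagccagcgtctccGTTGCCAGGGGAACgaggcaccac
Ift57: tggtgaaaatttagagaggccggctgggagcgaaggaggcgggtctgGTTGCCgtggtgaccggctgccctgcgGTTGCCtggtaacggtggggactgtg
Ift27: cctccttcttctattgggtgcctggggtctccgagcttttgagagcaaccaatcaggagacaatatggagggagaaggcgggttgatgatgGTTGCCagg
Pkhd1: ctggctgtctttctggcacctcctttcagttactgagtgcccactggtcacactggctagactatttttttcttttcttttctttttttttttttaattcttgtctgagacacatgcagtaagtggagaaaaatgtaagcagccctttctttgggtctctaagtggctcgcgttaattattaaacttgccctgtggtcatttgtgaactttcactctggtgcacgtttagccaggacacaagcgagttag
Neither gene with an X-box of the searched spacing, a gap of 2 bases, was called with the main scaling. In the Ift57 window the last left arm is followed by GGTAAC at a shorter gap, which the search did not cover. Bbs7 had 2.05, 2.04 and 1.6 FPKM in iNSCs and 2.29, 1.68 and 1.85 FPKM in SSCs, a log2 difference of 0.22 ± 0.19 (SE) that turned to -0.04 with library totals. Mks1 had 2.12, 2.36 and 2.23 FPKM in iNSCs and 4.66, 4.89 and 4.04 FPKM in SSCs, which did not overlap, a log2 difference of -0.76 ± 0.15 (SE) that missed the 2-fold limit and passed it, at -1.02, with library totals.

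The IFT-B genes, whose products form the trains that move toward the tip, split. Ift57, a peripheral IFT-B subunit, had 10.3, 10.68 and 10.57 FPKM in iNSCs and 4.26, 2.88 and 2.13 FPKM in SSCs, and rose by 2.03 ± 0.23 (SE) (edgeR, adjusted p = 0.00016). The iNSC libraries were close together and all above the SSC libraries, which spread 2.0-fold. Of Ift57's exonic bases 7.86% overlap Gm15518 on the opposite strand. Ift27, the small GTPase of the train, had 6.33, 5.67 and 7.64 FPKM in iNSCs and 4.25, 3.56 and 3.23 FPKM in SSCs, with no overlap. Its difference of 1.09 ± 0.18 (SE) (edgeR, adjusted p = 0.00098) sat near the 2-fold limit: it was 0.99 without iNSCs replicate 3 and 0.83 with library totals, both under it. Ift74, which pairs with Ift81 in a module that binds tubulin cargo, had 6.68, 6.54 and 5.42 FPKM in iNSCs and 21.07, 19.29 and 20.68 FPKM in SSCs. It fell by 1.46 ± 0.13 (SE) on the log2 scale (edgeR, adjusted p = 4.9e-05), and no iNSC library came near the SSC libraries. Ift80, a further subunit, had 2.29, 2.07 and 2.08 FPKM in iNSCs and 5.26, 5.85 and 4.76 FPKM in SSCs. The groups did not overlap, and its difference of -1.05 ± 0.12 (SE) (edgeR, adjusted p = 0.00015) passed the limit narrowly, at -0.97 without SSCs replicate 2 and at -0.98 and -1.0 without iNSCs replicates 2 and 3, where the call was lost.

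The other 6 IFT-B genes were not called, and their FPKM ranges did not overlap either. Ift52 averaged 14.1 ± 0.621 FPKM in iNSCs and 8.84 ± 1.31 FPKM in SSCs (SD, n = 3 each), a log2 difference of 0.93 that became 1.03, and was called, without SSCs replicate 1. Ift20, a subunit that also serves at the Golgi, averaged 29.3 ± 0.528 FPKM in iNSCs and 21.8 ± 2.88 FPKM in SSCs, the highest level per length of the 10 in both groups. Ift46, Ift81, Ift88 and Ift172 had log2 differences of -0.40, -0.46, -0.62 and -0.61. As the partners differ in their own values, the FPKM ratio of Ift74 to Ift81 was 2.09, 1.73 and 1.6 in iNSCs and 3.53, 3.55 and 3.70 in SSCs, higher in every SSC library.

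Within the IFT-A group, Tulp3, an adaptor that hands membrane receptors such as Gpr161 to IFT-A, had 8.92, 8.79 and 8.43 FPKM in iNSCs and 6.0, 5.28 and 4.07 FPKM in SSCs. The groups did not overlap; its difference of 1.03 ± 0.13 (SE) (edgeR, adjusted p = 0.00029) was 0.90 without SSCs replicate 3 and 0.77 with library totals, under the 2-fold limit in both. Ift140, a core subunit, averaged 5.35 ± 0.213 FPKM in iNSCs and 12.4 ± 2.85 FPKM in SSCs (SD, n = 3 each), a log2 difference of -0.97 that was called at -1.08 and -1.04 without SSCs replicates 1 and 3, at -1.22 with library totals and at -1.18 and -1.06 with limma on log2(FPKM + 0.1) and log2(FPKM + 1). Ift43 and Ift122 had log2 differences of -0.03 and -0.02.

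Of the motors, Dync2h1, the heavy chain of the dynein that drives trains back to the base, had 1.61, 1.74 and 1.55 FPKM in iNSCs and 3.05, 4.69 and 4.12 FPKM in SSCs. No iNSC library reached the SSC range, and the difference was -1.03 ± 0.18 (SE) (edgeR, adjusted p = 0.00161). Leaving out SSCs replicate 2 or 3, or iNSCs replicate 1 or 3, moved it to -0.89, -0.98, -0.98 or -0.97, where it was not called, and so did dropping the low-count filter (-0.99). The kinesin subunits Kif3a and Kif3b, which work as a pair on outbound trains, were not called: Kif3a averaged 13.1 ± 0.594 FPKM in iNSCs and 23.6 ± 1.14 FPKM in SSCs, and Kif3b 15.6 ± 0.207 FPKM in iNSCs and 13.2 ± 1.11 FPKM in SSCs (SD, n = 3 each). Their differences, -0.60 and 0.50, had opposite signs, and the FPKM ratio of Kif3a to Kif3b was 0.836, 0.8 and 0.881 in iNSCs and 1.87, 1.74 and 1.79 in SSCs. Kif3b was the more abundant per length in every iNSC library, and Kif3a in every SSC library.

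The BBS genes encode the BBSome coat and its assembly factors, and in mice and people their loss gives obesity and retinal degeneration. Ttc8 (BBS8), a BBSome subunit, had 4.69, 5.09 and 5.61 FPKM in iNSCs and 2.61, 2.55 and 1.41 FPKM in SSCs, and rose by 1.49 ± 0.24 (SE) (edgeR, adjusted p = 0.00088). Each iNSC library was above each SSC library. Bbs4, another subunit, had 1.96, 2.02 and 1.91 FPKM in iNSCs and 6.14, 5.07 and 8.17 FPKM in SSCs, and fell by 1.47 ± 0.21 (SE) on the log2 scale (edgeR, adjusted p = 0.00048). Its iNSC libraries were almost equal and all under the SSC libraries, and 3.21% of its exonic bases overlap Adpgk on the opposite strand. Bbs9, also of the coat, had 1.96, 1.78 and 1.72 FPKM in iNSCs and 5.06, 4.67 and 4.77 FPKM in SSCs, and fell by 1.16 ± 0.13 (SE) (edgeR, adjusted p = 0.00015), again with no overlap. Bbs12, a chaperonin-like assembly factor, had 2.03, 2.33 and 1.81 FPKM in iNSCs and 5.04, 5.34 and 4.43 FPKM in SSCs. That difference, -1.01 ± 0.18 (SE) (edgeR, adjusted p = 0.00175), was -0.94 without SSCs replicate 2 and -0.96 and -0.89 without iNSCs replicates 1 and 3, and -0.97 with no filter on low counts, where the call was lost.

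Bbs5, a phosphoinositide-binding subunit, lay just outside the limit, at 2.75 ± 0.300 FPKM in iNSCs and 1.65 ± 0.466 FPKM in SSCs (SD, n = 3 each), a log2 difference of 0.999 that passed the limit at 1.2 without SSCs replicate 1 and at 1.08 and 1.07 without replicates 2 and 3 of the iNSCs, and also with no filter on low counts (1.03). Arl6, the GTPase that brings the BBSome to membranes, had 6.55, 5.74 and 6.69 FPKM in iNSCs and 4.18, 3.46 and 7.28 FPKM in SSCs. SSCs replicate 3 was above all iNSC libraries and the other SSC libraries below them, and the difference was 0.59 ± 0.30 (SE) (edgeR, adjusted p = 0.116). Bbs1, Bbs2 and Bbs10 had log2 differences of -0.02, -0.30 and -0.36.

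At the ciliary base, 2 genes fell and 2 rose. Nphp4 (ENSMUSG00000039577, chromosome 4, 152476706 to 152563183, plus strand), a transition zone protein of nephronophthisis, had 1.03, 1.23 and 1.42 FPKM in iNSCs and 9.74, 10.89 and 6.61 FPKM in SSCs. It fell by 2.63 ± 0.22 (SE) on the log2 scale (edgeR, adjusted p = 3.9e-05), and every iNSC library was far under the SSC range. Ofd1, a centriole and satellite protein needed for cilium growth, had 2.99, 2.97 and 2.6 FPKM in iNSCs and 8.73, 10.38 and 13.54 FPKM in SSCs, and fell by 1.69 ± 0.21 (SE) (edgeR, adjusted p = 0.00024). There was no overlap, and 2.94% of its exonic bases are shared with Trappc2 on the opposite strand. B9d1, a member of the Meckel syndrome complex of the gate, had 15.63, 13.98 and 15.85 FPKM in iNSCs and 7.29, 5.46 and 4.76 FPKM in SSCs, and rose by 1.64 ± 0.18 (SE) (edgeR, adjusted p = 0.00013). The SSC libraries were all below the iNSC range. Invs, inversin of the proximal cilium, had 1.77, 1.79 and 1.62 FPKM in iNSCs and 0.92, 1.07 and 0.49 FPKM in SSCs, and rose by 1.33 ± 0.26 (SE) (edgeR, adjusted p = 0.00269). The groups did not overlap, with SSCs replicate 3 lowest.

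The other 5 genes of this role were not called. Cep290, a linker of the transition zone, averaged 0.727 ± 0.0737 FPKM in iNSCs and 1.48 ± 0.147 FPKM in SSCs (SD, n = 3 each), a log2 difference of -0.77 that was called, at -1.02, with library totals. Cep290 shares 7.58% of its exonic bases with 4930430F08Rik on the opposite strand. Mks1, given above, differed by -0.76 and was likewise called at -1.02 with library totals, Tmem67 differed by 0.51 and Rpgrip1l by 0.40. Arl13b, the GTPase used as the standard marker of the ciliary membrane, averaged 3.41 ± 0.140 FPKM in iNSCs and 3.62 ± 0.550 FPKM in SSCs, and its log2 difference of 0.16 ± 0.17 (SE) turned to -0.09 with library totals (edgeR, adjusted p = 0.433).

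**Figure D2:**
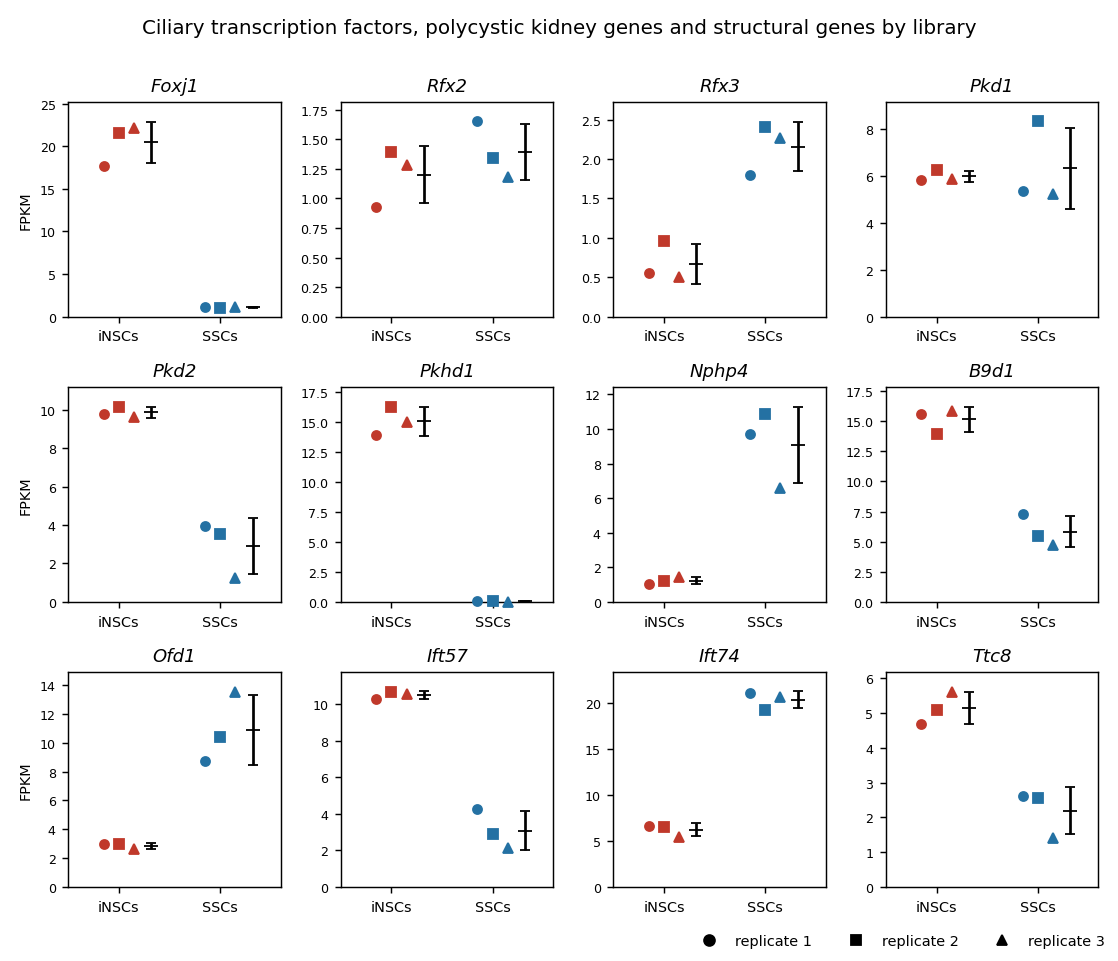
FPKM in each library (iNSCs left, SSCs right, marker shape by replicate, bar for the mean ± SD, n = 3) for cilium genes, each panel on its own linear axis from 0. Pkhd1 and Foxj1 are high in the iNSC libraries alone, Nphp4 and Rfx3 are higher in the SSC libraries, and the groups overlap for Pkd1 and Rfx2.

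Of the 5 hedgehog genes Smo rose, Gli1 fell and Ptch1, Gpr161 and Gli2 were not called. Smo (ENSMUSG00000001761, chromosome 6, 29735503 to 29761365, plus strand), the transducer that enters the cilium, had 22.59, 22.51 and 22.7 FPKM in iNSCs and 9.87, 9.76 and 5.45 FPKM in SSCs. It rose by 1.70 ± 0.21 (SE) (edgeR, adjusted p = 0.00023), with iNSC libraries nearly equal and SSCs replicate 3 lowest. Gli1 (ENSMUSG00000025407, chromosome 10, 127329882 to 127341974, minus strand), an activator that is itself a target gene and a usual readout of the pathway, had 0, 4 and 0 counts in iNSCs and 53, 52 and 100 counts in SSCs, or 0, 0.04 and 0 FPKM in iNSCs and 0.55, 0.58 and 1.07 FPKM in SSCs. It fell, being close to absent from iNSCs and low in SSCs. The ratio of its summed counts, 4 in iNSCs and 205 in SSCs, scaled for depth, was 0.0224 (exact 95% interval 0.00604 to 0.0582, counting error only). The fitted difference was -5.38 ± 0.84 (SE) (edgeR, adjusted p = 0.00081), and it was -9.02 without iNSCs replicate 2, which holds all 4 counts. Of its exonic bases 5.31% overlap Gm47200 on the opposite strand.

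The receptor Ptch1, also a target gene, had 3.98, 5.02 and 5.2 FPKM in iNSCs and 4.71, 8.55 and 5.05 FPKM in SSCs. SSCs replicate 2 was above all others and the groups overlapped; the difference of -0.12 ± 0.25 (SE) (edgeR, adjusted p = 0.687) was 0.21 without that library and 0.04 without iNSCs replicate 1. Gpr161, a ciliary receptor that holds the pathway down, had 3.31, 3.69 and 3.98 FPKM in iNSCs and 3.01, 3.7 and 2.48 FPKM in SSCs, a difference of 0.51 ± 0.17 (SE) under the 2-fold limit (edgeR, adjusted p = 0.029). Gli2, the main activator, had 0.92, 0.83 and 1.14 FPKM in iNSCs and 0.83, 1.18 and 0.07 FPKM in SSCs. SSCs replicate 3 was far under the other 5 libraries, and the difference of 0.75 ± 0.73 (SE) (edgeR, adjusted p = 0.381) was 0.21 without it and 1.38 without SSCs replicate 2. SSCs replicate 3 is also the library with the lowest sums of fibroblast and smooth muscle markers, and their part in the spread was not tested.

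Other hedgehog genes, a list of 21 of which 19 were tested, had 4 higher and 4 lower, with a median log2 difference of 0.10. Over all genes tested 25.7% were called higher and 27.6% lower. Of the ligands, Dhh, which Sertoli cells secrete in the testis and which is also on the Sertoli marker list, had 5.73, 4.94 and 4.79 FPKM in iNSCs and 1.84, 0.33 and 0.68 FPKM in SSCs, and rose by 2.71 ± 0.53 (SE) (edgeR, adjusted p = 0.00236), or by 3.57 without SSCs replicate 1. The groups did not overlap, and Sox9, another Sertoli marker, moved with it at 20.95, 23.85 and 20.97 FPKM in iNSCs and 3.9, 2.75 and 4.03 FPKM in SSCs. Of the 8 tested markers on that list, Dhh among them, 6 rose and 1, Rhox5, fell. Rhox5 had 0, 0.41 and 0.13 FPKM in iNSCs and 2.12, 0.81 and 1.28 FPKM in SSCs. Amh and Fshr, also on that list, were too low to be tested. Amh had 0.1, 0.18 and 0.09 FPKM in iNSCs and 0.53, 0.13 and 1.06 FPKM in SSCs. Fshr had 0.02, 0.04 and 0.02 FPKM in iNSCs and 0 in every SSC library. The part of Sertoli cells in the Dhh level was not tested. Ihh had 0.02, 0.08 and 0.02 FPKM in iNSCs and 0.56, 0.44 and 0.75 FPKM in SSCs and fell; the depth-scaled ratio of its counts was 0.0802 (exact 95% interval 0.0315 to 0.172), and the fitted difference of -3.58 was -4.68 without iNSCs replicate 2. Shh had 0, 1 and 2 counts in iNSCs and 12, 6 and 7 counts in SSCs and was too low to be tested. Disp2, a relative of the ligand-releasing protein Disp1, averaged 0.807 ± 0.221 FPKM in iNSCs and 0.0533 ± 0.0416 FPKM in SSCs (SD, n = 3 each), and rose by 4.13 ± 0.52 (SE) (edgeR, adjusted p = 0.00028). Its difference was 4.96 without SSCs replicate 3, and it was under the limit at 0.77 with limma on log2(FPKM + 1).

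On the receiving side, Gas1, a co-receptor, had 22.45, 19.15 and 21.97 FPKM in iNSCs and 1.52, 1.78 and 2.4 FPKM in SSCs, and rose by 3.72 ± 0.22 (SE) (edgeR, adjusted p = 9e-06). Evc, a ciliary partner of Smo, averaged 6.60 ± 0.232 FPKM in iNSCs and 1.94 ± 0.564 FPKM in SSCs and rose by 2.02 (SD, n = 3 each). Hhip, a decoy receptor and target gene, had 5, 1 and 6 counts in iNSCs and 4, 5 and 18 counts in SSCs, too few to be tested. Gli3, chiefly a repressor, had 2.36, 2.24 and 2.11 FPKM in iNSCs and 5.43, 10.09 and 11.7 FPKM in SSCs, and fell by 1.78 ± 0.29 (SE) (edgeR, adjusted p = 0.00102). Kif7, the kinesin that organises Gli proteins at the ciliary tip, averaged 1.85 ± 0.248 FPKM in iNSCs and 7.50 ± 0.0208 FPKM in SSCs and fell by 1.77. Sufu, the inhibitor that binds Gli proteins, averaged 7.07 ± 0.572 FPKM in iNSCs and 5.50 ± 1.02 FPKM in SSCs, a difference of 0.62 ± 0.15 (SE) that was not called (edgeR, adjusted p = 0.00736).

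**Figure D3:**
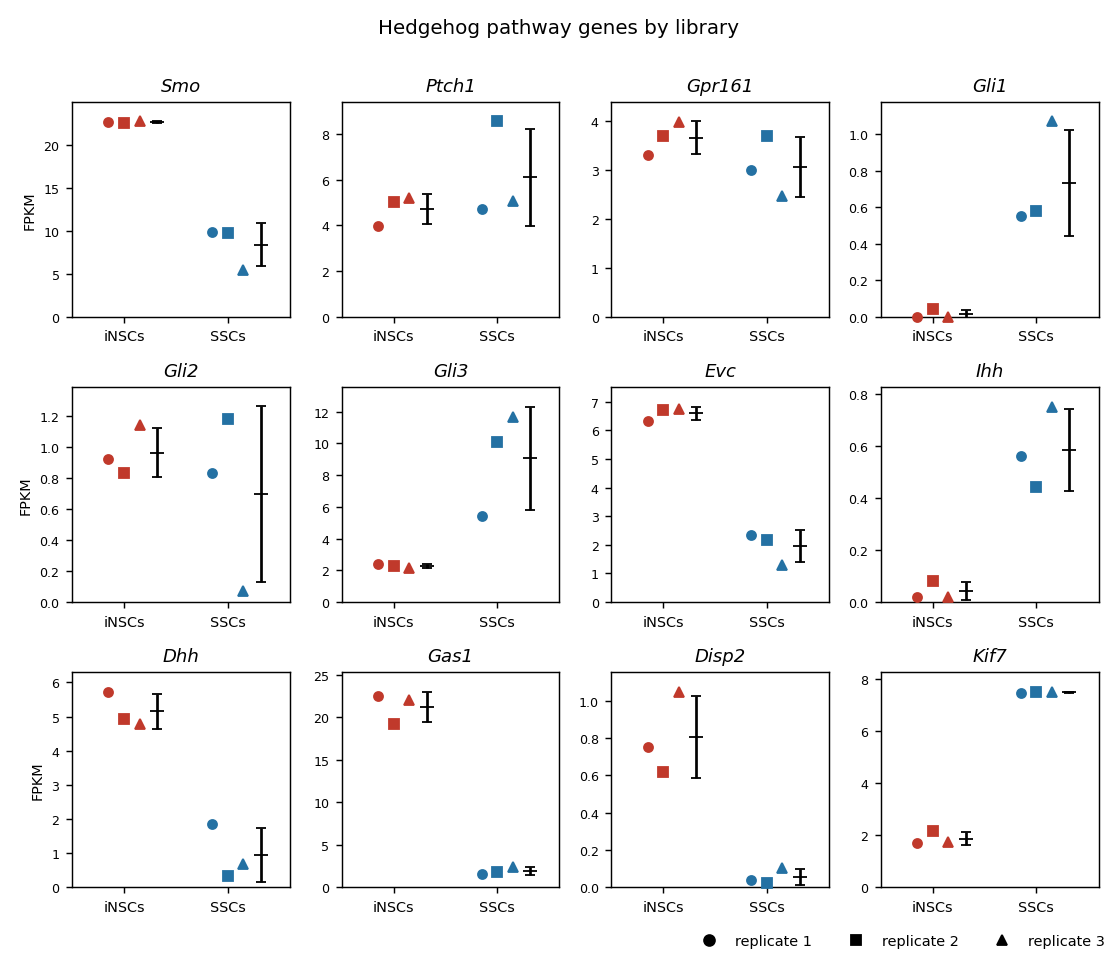
FPKM in each library (iNSCs left, SSCs right, marker shape by replicate, bar for the mean ± SD, n = 3) for 12 hedgehog genes, each on its own linear axis from 0. Smo, Dhh, Gas1, Evc and Disp2 are higher in every iNSC library, Gli1, Gli3, Ihh and Kif7 are higher in every SSC library, and the groups overlap for Ptch1, Gpr161 and Gli2.

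Further genes of the cilium were counted in lists chosen by function. The counts stand beside 25.7% called higher and 27.6% called lower over all genes tested. Of 17 other IFT and motor genes tested, 3 rose and 2 fell (median log2 difference 0.41). Dync2li1, the light intermediate chain of the retrograde dynein, averaged 24.1 ± 1.16 FPKM in iNSCs and 7.38 ± 2.41 FPKM in SSCs and rose by 1.97, the opposite direction to its heavy chain Dync2h1. The FPKM ratio of Dync2h1 to Dync2li1 was 0.0706, 0.0697 and 0.0631 in iNSCs and 0.320, 0.597 and 0.864 in SSCs. Ift22, a small GTPase of IFT-B, rose by 1.85 and Ttc30b, an IFT-B subunit with close paralogues that may share its reads, by 1.80. Ttc21b, an IFT-A subunit, fell by 1.49 and Kif17, an accessory kinesin, by 1.26 (-0.87 with limma on log2(FPKM + 1), under the limit). For Ift27 and Hspb11 (IFT25), which bind each other, the FPKM ratio was 1.53, 1.58 and 1.96 in iNSCs and 1.14, 1.21 and 1.47 in SSCs.

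Of 22 other transition zone and BBS genes 4 rose and 4 fell (median 0.07). Cc2d2a, a gate protein of Meckel and Joubert syndromes, averaged 3.07 ± 0.312 FPKM in iNSCs and 0.450 ± 0.115 FPKM in SSCs and rose by 3.03. Anks6, of the inversin compartment, rose by 1.5 and Tmem231, of the gate, by 1.28, both under the limit with limma on log2(FPKM + 1), at 0.93 and 0.85. Iqcb1, a nephronophthisis gene, averaged 1.5 ± 0.0961 FPKM in iNSCs and 8.75 ± 0.374 FPKM in SSCs and fell by 2.29. Ahi1, mutated in Joubert syndrome, fell by 2.12 and Rpgrip1, of the photoreceptor cilium, by 1.74 from a low level. Of 21 membrane trafficking and basal body genes 2 rose and 4 fell (median -0.23). Rab8a, a GTPase of ciliary vesicles, rose by 1.80 and Fbf1, of the distal appendages, by 1.2 (0.94, under the limit, with library totals). Tub, the founder of the family of Tulp3, averaged 0.373 ± 0.0351 FPKM in iNSCs and 9.45 ± 2.32 FPKM in SSCs and fell by 4.41, where Tulp3 was higher in iNSCs. Ccp110, which caps centrioles and holds back ciliogenesis, averaged 2.39 ± 0.112 FPKM in iNSCs and 11.3 ± 2.35 FPKM in SSCs and fell by 2.00, and Cep83, of the distal appendages, fell by 1.43.

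Motile cilium genes, the class that Foxj1 is known to switch on, went the other way from Foxj1. Of 21 tested, 16 fell and 0 rose (median -2.37), where 27.6% of all genes tested were called lower and 25.7% higher. The genes that fell were low in SSCs too, with means there from 0.14 FPKM (Dnah9) to 4.36 FPKM (Rsph1). At an unadjusted p under 0.05 edgeR had 1 on the higher side, Rsph9, at a log2 difference of 0.90. Its adjusted p was also under 0.05 (edgeR, adjusted p = 0.00986), and it missed only the 2-fold limit. DESeq2 and limma each called 0 higher. Without SSCs replicate 3 or without iNSCs replicate 2 there was 1 higher call. Hydin, of the central pair apparatus, averaged 0.0100 FPKM in iNSCs and 0.520 ± 0.208 FPKM in SSCs, with a depth-scaled ratio of counts of 0.0154 (exact 95% interval 0.00617 to 0.0320). Tekt1, a tektin of the axoneme, had 0, 0.13 and 0 FPKM in iNSCs and 4.39, 3.55 and 2.87 FPKM in SSCs, with a ratio of 0.0139 (0.00378 to 0.0360). Its fitted difference was -6.04, and -9.68 without iNSCs replicate 2. For Dnaic1, an outer arm dynein chain, the ratio was 0.0543 (0.0245 to 0.105). Some of these genes are also transcribed in male germ cells, and germ cell markers summed to 8.2 to 10.9 FPKM in iNSCs and 474 to 563 FPKM in SSCs; their part in this list was not tested. Of 12 cilium disassembly genes 1 rose and 6 fell (median -0.96). Nedd9, a scaffold that activates Aurka, rose by 1.48. Kif19a, a depolymerising kinesin of motile cilia, averaged 0.123 ± 0.0404 FPKM in iNSCs and 8.05 ± 3.73 FPKM in SSCs and fell by 5.76. Kif24, a centriolar kinesin, fell by 2.04 and Nek2, a mitotic kinase, by 2.01. Nek2 averaged 8.03 ± 0.480 FPKM in iNSCs and 38.5 ± 5.46 FPKM in SSCs (SD, n = 3 each). The proliferation markers given above were lower in iNSCs as well, and their part in this list was not tested.

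**Figure D4:**
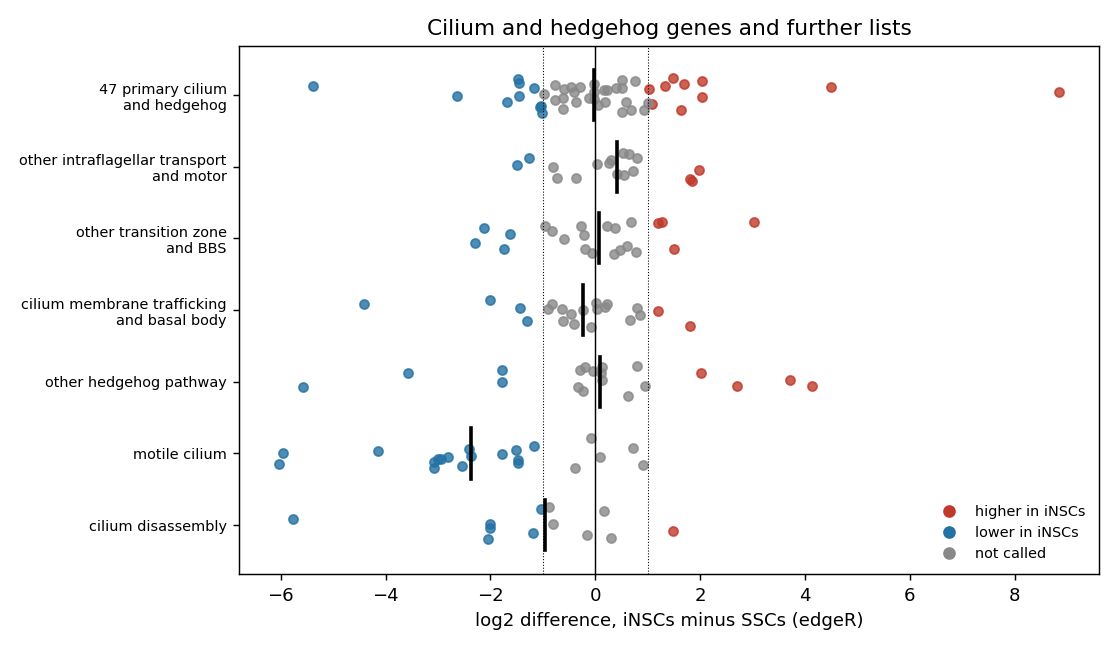
Fitted log2 difference (iNSCs minus SSCs) of each tested gene in the 47 genes and the 6 further lists, one point per gene and a bar for each median, with called genes coloured. The motile cilium genes lie mostly below 0, with a median of -2.37, and the medians of the other lists lie between -0.96 and 0.41.

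The spread between replicates was smaller in iNSCs. The median coefficient of variation of FPKM over the 47 genes was 7.14% in iNSCs and 16.5% in SSCs, beside 8.56% in iNSCs and 20.3% in SSCs over all genes tested. The highest and lowest libraries of a group differed by at least 2-fold for 1 of the 47 genes in iNSCs, Gli1 with its 0, 4 and 0 counts, and for 5 in SSCs, namely Ift57 (2.0-fold), Arl6 (2.1-fold), Invs (2.18-fold), Pkd2 (3.14-fold) and Gli2 (16.9-fold). SSCs replicate 3 was the lowest SSC library for 23 of the 47 genes and the highest for 7. The same count over all genes is not given here, so this is not read as a trait of the 47.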

How the data were processed

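Polyadenylated RNA of 3 iNSC and 3 SSC libraries was sequenced after a stranded library preparation, per the labels' protocols. The authors deposited 1 table of read counts (whole numbers) and FPKM for each gene and library. Recomputing the deposited FPKM from counts, exonic lengths and column totals matched 100% of values within 0.006, so it carries no other scaling. The submitters' processing notes name HISAT2, DESeq2 and mm9, with no versions, while the coordinates of all 47 genes equal those of GENCODE M21 on GRCm38. Neither the counting tool nor its strand setting is given in the sources used here.

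Counts were tested with edgeR 4.0.16 (quasi-likelihood, filterByExpr with a minimum count of 10 and total of 15, 17387 genes, Benjamini-Hochberg adjustment). SE is the log2 difference divided by the square root of F. Alternatives were DESeq2 1.42.0, library totals, other filters, limma 3.58.1 on log2(FPKM + 1) and log2(FPKM + 0.1), no size threshold, a replicate block and leaving out each library. The limma fits used genes with at least 0.5 FPKM in at least 3 libraries. Scripts were tested on simulated data. Intervals cover counting error only.

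The 47 genes, the lists and the tests were chosen with earlier results of these data known. Library values are given for hedgehog, transcription factor and polycystic kidney genes and, in other roles and lists, up to 3 called genes per direction with the largest difference are named, along with Shh, Ihh, Dhh, Gli3, Hhip and Sufu. A further gene under this rule is counted in its list but not reported here. Bbs5, Arl6, Bbs7, Mks1, Arl13b, Cep290, Ift20, Ift52, Ift140, Kif3a, Kif3b, Evc, Kif7, Rsph9, Hspb11, Disp1, Cdon, Boc, Evc2, Hhat, Ccno, Gmnc, Mcidas, Deup1, Tekt4, Ttc30a2 and the marker genes were named after their values were seen.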

Additional observations from a re-analysis of the deposited data

How the results depend on the processing

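Of 20 called genes among the 47, 11 were called in the same direction under all 14 alternatives. Over the 47 genes, 658 values under alternatives gave 573 with the same direction and call, 28 that lost and 28 that gained a call, and 29 that changed sign, all of uncalled genes. With no size threshold, 17 of the 47 rose and 18 fell; other IFT and motor genes had 9 higher and 4 lower, transition zone and BBS genes 9 and 7, membrane trafficking genes 5 and 8, other hedgehog genes 7 higher and motile cilium genes 1 higher. With limma on log2(FPKM + 1), which flattens low genes by construction, 6 of the 47 rose and 6 fell, 2770 of all genes were higher, other IFT genes had 1 lower, transition zone genes 1 higher, and motile genes 6 lower (9 with log2(FPKM + 0.1)). Both limma fits tested only genes with at least 0.5 FPKM in at least 3 libraries. Motile genes that edgeR called lower, such as Hydin, Dnah5 and Spag16, were therefore not tested by limma. Membrane trafficking genes had 1 higher with library totals and both limma fits. Motile cilium genes had 0 to 1 higher with a library left out. Sign changes were as follows. With no filter Ift43 was 0.00, Ift122 0.01 and Bbs1 0.01. With library totals, log2(FPKM + 0.1) and log2(FPKM + 1), Bbs7 was -0.04, -0.03 and -0.02, Pkd1 -0.08, -0.04 and -0.04, Arl13b -0.09, -0.08 and -0.06, and Rfx2 -0.21, -0.20 and -0.12. With a library left out, Ift43 ran from -0.16 to 0.13, Ift122 from -0.12 to 0.06, Bbs1 from -0.12 to 0.06, Rfx2 from -0.05 to 0.24 and Ptch1 from -0.29 to 0.21. The cause of these changes was not tested. Same-numbered libraries showed little joint deviation from their group means (correlations 0.091, 0.05 and -0.015). With 3 libraries in each group this cannot exclude that the numbers pair them. With a replicate block 11 of the 47 rose and 10 fell, and 4510 of all genes rose and 4661 fell. Depth limits values that rest on few counts in iNSCs, such as those of Gli1, Shh, Ihh, Hhip and Tekt1.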

Other observations

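Gmnc and Mcidas, which act early in the multiciliated cell programme, were at or near 0 in most libraries. Gmnc had 0, 1 and 0 counts in iNSCs and 0 in every SSC library, and Mcidas had 1, 0 and 0 counts in iNSCs and 1, 6 and 0 counts in SSCs. Deup1, of the deuterosome, had 0 counts in every iNSC library and 5, 4 and 6 counts in SSCs, at least 4.36-fold lower in iNSCs against a floor of 3 counts over the group. Tekt4 had 0, 1 and 1 counts in iNSCs and 1, 0 and 2 counts in SSCs. These 4 genes were too low to be tested. Ccno, which acts in the same programme, had 9, 23 and 19 counts in iNSCs and 125, 191 and 93 counts in SSCs and fell by 2.81 ± 0.43 (SE) on the log2 scale (edgeR, adjusted p = 7.1e-04). The IFT-B paralogue Ttc30a2 had 1, 1 and 0 counts in iNSCs and 10, 6 and 10 counts in SSCs, while its relative Ttc30b, with 5.65 ± 0.563 FPKM in iNSCs and 1.94 ± 0.639 FPKM in SSCs (SD, n = 3 each), differed the other way. The pair may share reads.

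Further co-receptors and ligand handlers of hedgehog signalling were not called. Cdon averaged 4.48 ± 0.445 FPKM in iNSCs and 6.05 ± 1.49 FPKM in SSCs, Boc 3.07 ± 0.161 FPKM in iNSCs and 3.35 ± 0.170 FPKM in SSCs, and Disp1 10.5 ± 0.379 FPKM in iNSCs and 11.5 ± 0.447 FPKM in SSCs (SD, n = 3 each). Their log2 differences were -0.19, 0.13 and 0.12. Hhat, the acyltransferase that lipidates the ligands, averaged 0.903 ± 0.0493 FPKM in iNSCs and 0.563 ± 0.0737 FPKM in SSCs with no overlap, a log2 difference of 0.94 under the 2-fold limit. Evc2, the partner of Evc, averaged 10.2 ± 0.382 FPKM in iNSCs and 7.05 ± 1.69 FPKM in SSCs, a log2 difference of 0.80 under the 2-fold limit.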
